A study of Mus musculus with 7 samples.

Results

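The potassium channel genes described here are the protein-coding genes whose symbol starts with Kcn, without Kcnj8, Kcnj10 and Kcnj13. The rule took 91 of the 54532 annotated genes and groups them by the letters that follow Kcn. Their transcripts were measured by RNA-seq in motor cortex of mice labelled CKO (conditional knockout, here cKO, 4 libraries) and of wild-type mice (WT, 3 libraries). All mice of both groups had received a virus named GA100 into both lateral ventricles on postnatal day 0, and their brains were sampled 3 months later. The series title names TIA1, a protein of stress granules, and a model of C9orf72 disease with poly-GA chains. The labels give neither the deleted exons, nor the driver of the deletion, nor strain or sex, and no uninjected mice were analysed here, so cKO and WT differ here by genotype alone as labelled, both with the virus.

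Potassium channels set the resting potential of a cell, the shape of its action potentials and its rate of firing. Voltage-gated pores (Kcna, Kcnb, Kcnc, Kcnd, Kcnh, Kcnq) open on depolarization, silent subunits (Kcnf, Kcng, Kcns, Kcnv) form no channel alone but join Kcnb pores, and auxiliary subunits (Kcnab, Kcne, Kcnip, Kcnmb) change the gating or surface level of the pores they bind. Other pores open with intracellular calcium or sodium (Kcnma, Kcnn, Kcnt), pass current more easily inwards (Kcnj) or leak at rest (Kcnk). In the counts below Kcnu1 is taken with the first of these, as ion-activated pores, and Kcnrg with the auxiliary subunits.

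Library totals ran from 15181390 to 16403202 gene counts in cKO and from 15213977 to 16463721 in WT, and the 91 genes together took 0.69% ± 0.02 of the counts in both cKO (SD, n = 4) and WT (SD, n = 3). Tia1, named by the title, had 81.4, 80.3, 72.7 and 81.9 CPM in cKO, against 60.6, 95.8 and 68.9 CPM in WT, where CPM is the count scaled to a common library size. Its log2 fold change, given here and throughout as cKO minus WT, was 0.07 ± 0.13 (SE, edgeR adjusted p = 0.914), with overlapping groups; since the deleted part is not given, Tia1 does not check the labels and is not lower under the cKO label. All 9 cortical layer markers were detected in every library. Of 10 markers of excitatory neurons, 9 had a negative log2 fold change (3893 to 4753 CPM in cKO and 4759 to 5328 CPM in WT in sum), and all 10 of oligodendrocytes had a positive one (4198 to 8331 CPM in cKO and 3860.4 to 5898 CPM in WT). Their part in the results below was not tested, and in bulk tissue fewer cells of a type and less RNA per cell cannot be told apart. cKO replicate 3 stood apart by 7 olfactory bulb markers, with a sum of 188 CPM, against 18.5 to 21.8 CPM in the other 6 libraries. Together with WT replicate 1 it was also highest in meningeal fibroblast markers, with sums of 95.8 CPM for the cKO and 82.2 CPM for the WT library.

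No potassium channel gene differed between cKO and WT past the threshold. Counts sufficed to test 74 of the 91 genes, and edgeR's quasi-likelihood test called 0 of them at an adjusted p under 0.05, where it called 0% of all 16308 tested genes. The smallest adjusted p among the members was 0.679. DESeq2 and limma-voom also called 0 members. At an unadjusted p under 0.05 stood 7 of the 74 members (9.46%), where 7.14% of all tested genes did. They were 5 with a higher and 2 with a lower mean in cKO, against 4.22% and 2.91% of all tested genes. DESeq2 gave 6 of 90 members (6.67%, against 3.43% of all genes), and limma-voom 6 of 74 (8.11%, against 6.78%). The fit with the replicate number as a block gave 11 of 74 (14.9%, against 7.52%), and the fit without WT replicate 1 gave 4 (5.41%, against 3.34%). In the block fit cKO replicate 4 had no WT library of its number, so it added nothing to the genotype difference. Without both cKO replicate 3 and WT replicate 1, a setting chosen after the data were seen, 6 members had an unadjusted p under 0.05 (8.11%, against 6.24% of all tested genes) and 0 were called.

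The cKO and WT libraries did not overlap for 5 members, where 7.38% of all tested genes did not overlap. Kcnj2, Kcnj14 and Kcnj16 were higher in cKO (3.97% of all genes in that direction) and Kcng2 and Kcnn1 lower (3.42%). Log2 fold changes were positive for 34 members and negative for 40, with a median of -0.01, against 0.01 over all tested genes. Among the 56 members with a mean of at least 10 CPM they ran from -0.23 to 0.38. The 95% interval lay within a 1.5-fold difference either way for 51 of these 56 (91.1%, against 93.0% of all tested genes at that level), and within a 2-fold difference for all 56. Low members were measured less precisely: the interval of Kcnrg, at about 1 CPM, ran from -1.54 to 0.11, and that of Kcne4 from -0.07 to 1.84.

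**Figure D1:**
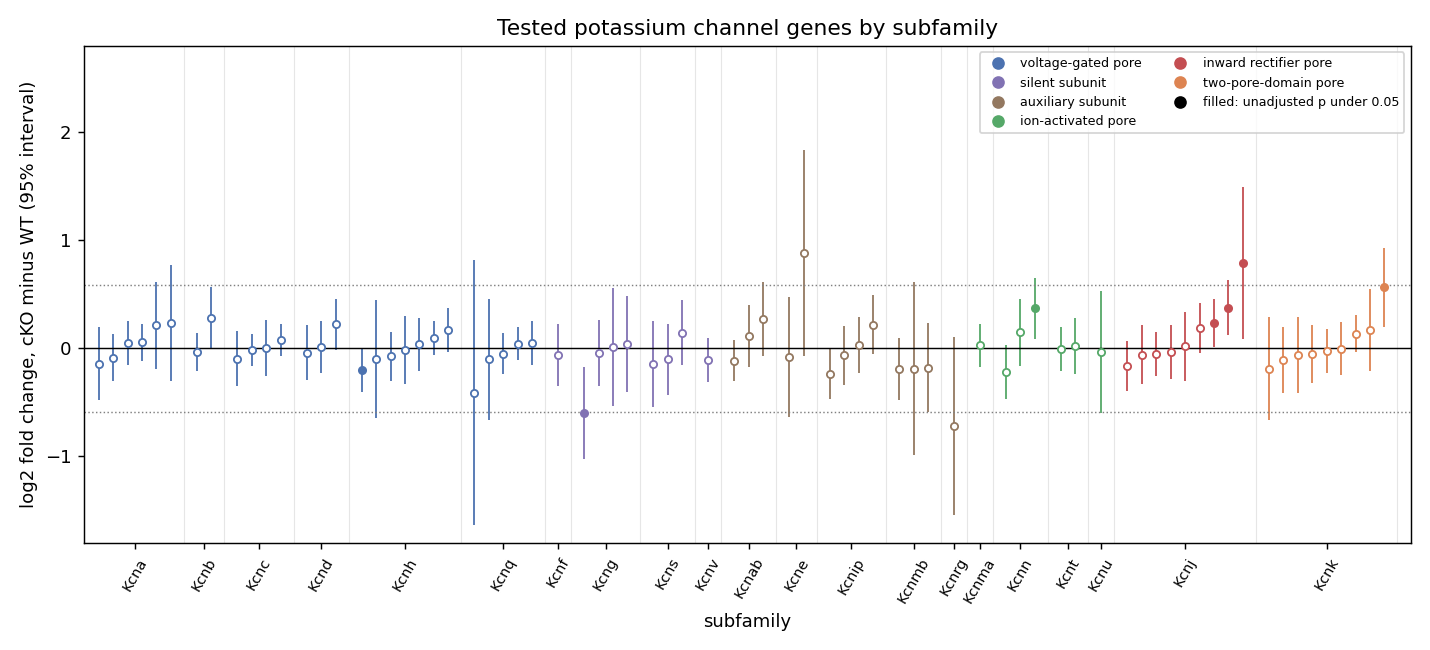
Log2 fold change, cKO minus WT, of the 74 tested potassium channel genes (points, with 95% intervals as lines), in order of subfamily and coloured by role; filled points have an unadjusted p under 0.05 and dotted lines mark a 1.5-fold difference. Most points lie near 0, with Kcnh3 and Kcng2 filled below it and Kcnn3, Kcnj16, Kcnj2, Kcnj14 and Kcnk13 filled above it.

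Levels of different genes were compared in the authors' FPKM, fragments scaled by gene length and library depth. A mean of at least 20 FPKM was reached by 21 members, 45 had 1 to 20 FPKM and 25 had under 1 FPKM. The highest was Kcnab2, a beta subunit of Kcna channels, with 81.8, 76.7, 66.99 and 75.3 FPKM in cKO, against 87.5, 79.6 and 78.5 FPKM in WT. It was the highest member in every library, but in cKO replicate 3 the inward rectifier Kcnj4 nearly equalled it at 66.9 FPKM. Kcnj4 averaged 52.5 ± 9.77 FPKM in cKO (SD, n = 4) and 52.02 ± 10.6 FPKM in WT (SD, n = 3). Also among the highest were Kcna2 with 42.8 ± 2.07 FPKM in cKO and 41.4 ± 2.62 FPKM in WT and Kcnk1 with 41.5 ± 2.38 FPKM in cKO and 37.9 ± 1.38 FPKM in WT. Over the libraries Kcnj4 overlapped in range with Kcna2 and Kcnk1, but within each library it was above both. The order of Kcna2 and Kcnk1 varied, with Kcnk1 above Kcna2 in cKO replicates 1 and 4 and below it in the other libraries.

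**Figure D2:**
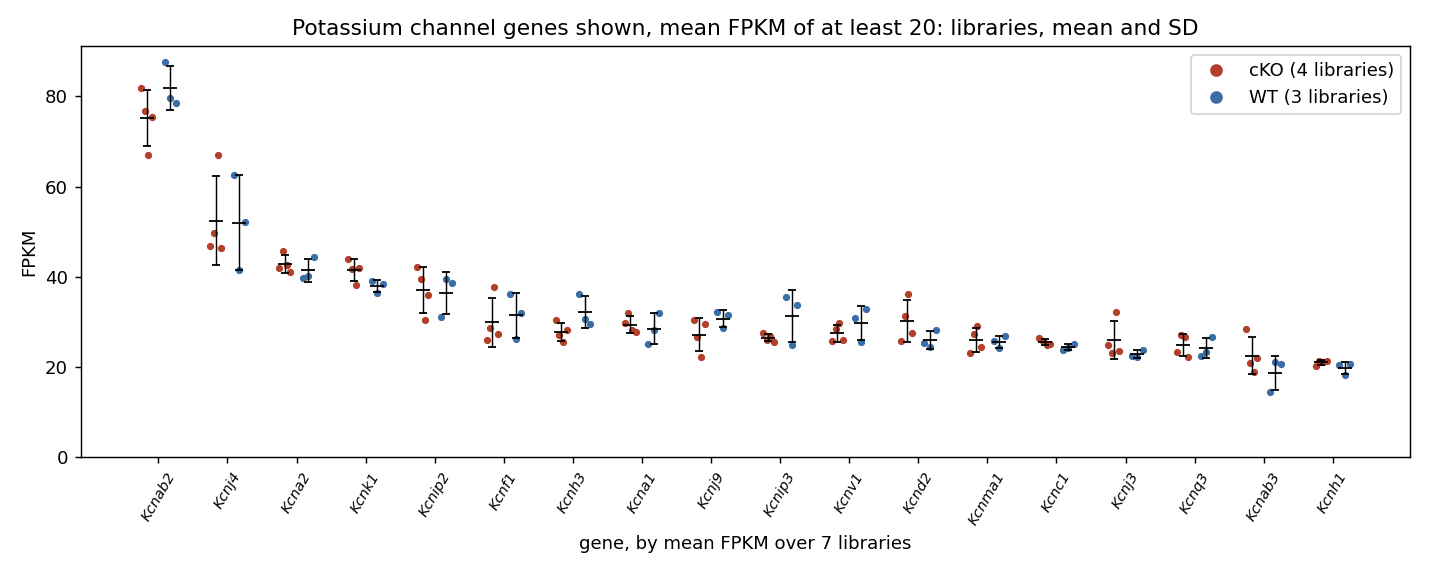
FPKM of 18 potassium channel genes with a mean of at least 20 FPKM, with each library as a point and the group mean and SD in black, cKO left of WT for each gene. Kcnab2 stands highest, and the cKO and WT points overlap in range for all 18 genes shown.

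Voltage-gated pores held 43.4% ± 0.81 in cKO and 43.1% ± 0.59 in WT of the summed FPKM of the members (SD, n = 4 and n = 3, as for the other shares). Auxiliary subunits held 19.5% ± 1.25 in cKO and 20.2% ± 0.53 in WT, and inward rectifiers held 13.6% ± 0.85 in cKO and 13.3% ± 1.01 in WT. Two-pore-domain channels held 9.43% ± 0.38 in cKO and 8.99% ± 0.31 in WT, silent subunits 8.47% ± 0.68 in cKO and 8.92% ± 0.51 in WT and ion-activated pores 5.60% ± 0.10 in cKO and 5.49% ± 0.31 in WT. The libraries of the groups overlapped in each of these 6 shares, which were not tested.

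**Figure D3:**
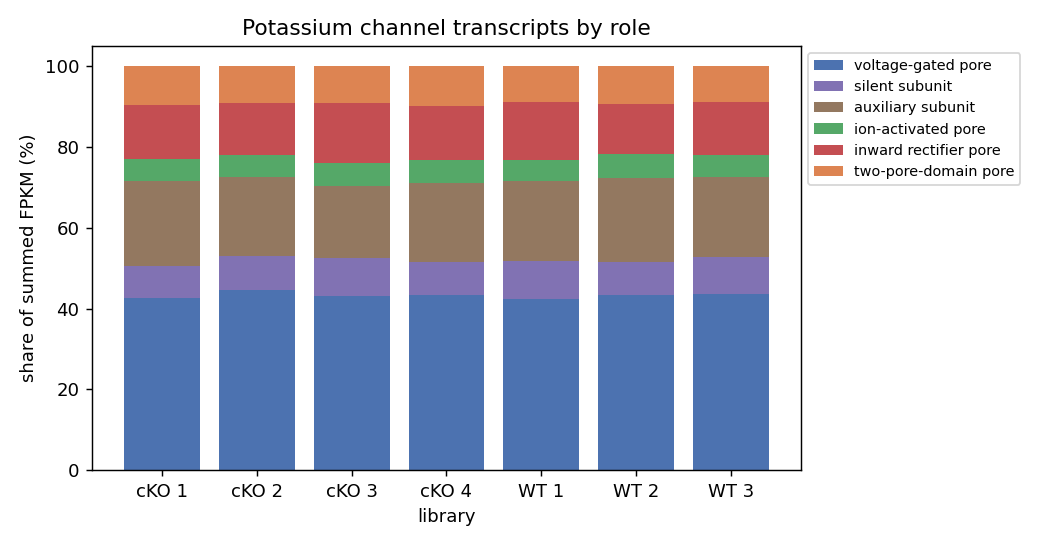
Share of the summed FPKM of the 91 potassium channel genes held by each role, in percent, with 1 stacked bar per library, cKO left of WT. Voltage-gated pores take 42.4% to 44.6% in every library, auxiliary subunits come next and ion-activated pores take the smallest share.

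Of 30 voltage-gated pore genes 27 were tested, 14 with a positive and 13 with a negative log2 fold change and a median of 0.01. Kcna2, a delayed rectifier of axons, had 505, 549, 506 and 491 CPM in cKO, against 471, 480.1 and 528 CPM in WT. The groups overlapped, and the log2 fold change was 0.06 with a 95% interval of -0.11 to 0.23, and 0.01 to 0.11 without single libraries. Kcnq3, a subunit of the M-current that limits repetitive firing, had 367 ± 34.4 CPM in cKO (SD, n = 4) and 355 ± 32.7 CPM in WT (SD, n = 3), a log2 fold change of 0.05 with an interval of -0.16 to 0.25. For both pores a 1.5-fold difference lay outside the interval.

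The Kcnc channels open and close fast and allow rapid firing, as in parvalbumin interneurons. Log2 fold changes were 0.08 for Kcnc1, -0.01 for Kcnc2 and -0.10 for Kcnc4, each with an interval inside 1.5-fold. Kcnc1 had 252, 247, 234 and 239 CPM in cKO, against 224, 231 and 237 CPM in WT, and only cKO replicate 3 lay within the WT range. The 7 parvalbumin interneuron markers summed to 852 to 906 CPM in cKO and 803 to 831 CPM in WT. Most of that sum was Cplx1, with 506 to 570 CPM in cKO and 508 to 516 CPM in WT. Pvalb itself had 43.2, 36.8, 24.3 and 39.5 CPM in cKO, against 29.1, 33.5 and 32.8 CPM in WT. Of the 7 markers 6 had a positive log2 fold change, and 0 had an edgeR unadjusted p under 0.05. The part of these markers in the Kcnc1 values was not tested.

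Kcnd2 forms the A-type current of dendrites. It had 134, 162, 186 and 142 CPM in cKO, against 130.5, 126 and 145 CPM in WT, a log2 fold change of 0.22 ± 0.11 (SE, edgeR adjusted p = 0.704). Kcnb2, a delayed rectifier pore, had 42.7, 44.7, 61.8 and 46.6 CPM in cKO, against 45.2, 36.2 and 39.5 CPM in WT, a log2 fold change of 0.28 ± 0.13 (SE, edgeR adjusted p = 0.696). In both genes cKO replicate 3 was the highest library and the groups overlapped, and without it the log2 fold change was 0.12 for Kcnd2 and 0.14 for Kcnb2.

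Kcnh3, a forebrain pore of the ELK branch of the Kcnh genes, was the voltage-gated pore with the smallest p. It had 177, 158, 146 and 163 CPM in cKO, against 208, 178 and 169.9 CPM in WT. cKO replicate 1 lay within the WT range and the other cKO libraries below it. The difference was -0.20 ± 0.09 (SE) on the log2 scale, with an edgeR unadjusted p of 0.0464 and an adjusted p of 0.696, and it was -0.12 without WT replicate 1 and -0.07 without WT replicate 1 and cKO replicate 3. The gene (mm10 chromosome 15, 99224861 to 99242817) overlaps Mcrs1 on the opposite strand, which averaged 44.4 CPM in cKO and 53 CPM in WT. Whether the counting used strand is not given, so reads of such pairs may be mixed.

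Of 10 silent subunit genes 9 were tested, 3 with a positive and 6 with a negative log2 fold change. Kcng2 had 5.004, 4.86, 5.28 and 4.76 CPM in cKO, against 10.2, 6.05 and 6.34 CPM in WT. Every cKO library lay below every WT library, and WT replicate 1 was far above the other WT libraries. The difference was -0.60 ± 0.19 on the log2 scale (SE, 95% interval -1.02 to -0.17), with an edgeR unadjusted p of 0.00979 and an adjusted p of 0.679, and without WT replicate 1 it was -0.32. Kcnf1, the silent subunit with the highest mean FPKM, overlapping Kcnv1 in range, had 125, 138, 181 and 132 CPM in cKO, against 172, 126 and 153 CPM in WT. Its highest libraries were cKO replicate 3 and WT replicate 1, and its log2 fold change of -0.06 was 0.04 without WT replicate 1. Kcnv1 had 127 ± 7.99 CPM in cKO (SD, n = 4) and 136 ± 16.8 CPM in WT (SD, n = 3), a log2 fold change of -0.10 that was -0.21 without WT replicate 2 and -0.03 without WT replicate 3. Kcng1 had 28.2 ± 5.59 CPM in cKO and 29.1 ± 2.58 CPM in WT (-0.05) and Kcns1 had 22.4 ± 4.58 CPM in cKO and 24.1 ± 1.93 CPM in WT (-0.10), and both turned positive without single libraries, Kcng1 without cKO replicate 1, cKO replicate 4 or WT replicate 3 and Kcns1 without cKO replicate 3.

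Of 17 auxiliary subunit genes 13 were tested, 5 with a positive and 8 with a negative log2 fold change, and 0 had an edgeR unadjusted p under 0.05. Kcnab2 had 422 ± 36.8 CPM in cKO (SD, n = 4) and 457 ± 25.96 CPM in WT (SD, n = 3), a log2 fold change of -0.11 with a 95% interval of -0.30 to 0.07. It was -0.07 without cKO replicate 3, -0.07 without WT replicate 1 and -0.01 without both. Kcnip2 and Kcnip3 encode calcium-binding partners of Kcnd pores. Kcnip3, also known as the repressor DREAM, had 98.6, 92.9, 94.97 and 91.6 CPM in cKO, against 125, 88.4 and 119.6 CPM in WT. WT replicate 2 was the lowest of all 7 libraries and the other WT libraries were the highest. On the log2 scale the difference was -0.23 ± 0.11 (SE, edgeR adjusted p = 0.696), and without single libraries it ran from -0.38 to -0.14. Kcnip2 had 129 ± 18.5 CPM in cKO and 127 ± 16.4 CPM in WT, a log2 fold change of 0.03 that turned negative without cKO replicate 1, cKO replicate 2 or WT replicate 1.

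The 3 tested beta subunits of BK channels had log2 fold changes of -0.19 for Kcnmb1, -0.18 for Kcnmb2 and -0.19 for Kcnmb4. Kcnmb4, the main one of neurons, had 12.6, 9.51, 10.9 and 10.7 CPM in cKO, against 13.2, 12.2 and 12.2 CPM in WT. cKO replicate 1 lay within the WT range and the other cKO libraries below it. Kcne1l, the Kcne gene with the highest FPKM, had 2.31 ± 0.232 CPM in cKO (SD, n = 4) and 2.44 ± 0.704 CPM in WT (SD, n = 3), and its log2 fold change of -0.08 was 0.16 without WT replicate 1. Kcnrg encodes a regulator of voltage-gated channels and had 0.422, 0.732, 0.676 and 1.13 CPM in cKO, against 1.04, 1.24 and 1.39 CPM in WT (-0.72 ± 0.38, SE, edgeR adjusted p = 0.715). cKO replicate 4 lay within the WT range. The gene overlaps Dleu2 on the opposite strand, at 7.32 CPM in cKO and 7.87 CPM in WT.

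Of 8 ion-activated pore genes 7 were tested, 4 with a positive and 3 with a negative log2 fold change. Kcnma1, the large-conductance BK pore opened by calcium and voltage, had 444 ± 44.6 CPM in cKO (SD, n = 4) and 435 ± 20.9 CPM in WT (SD, n = 3), a log2 fold change of 0.03 with a 95% interval of -0.17 to 0.22. The sodium-activated pore Kcnt1 had 106 ± 13.98 CPM in cKO and 105 ± 14.9 CPM in WT (0.02). Both values changed sign without single libraries. Kcnu1, known as a pore of sperm, had 2.24 ± 0.525 CPM in cKO and 2.29 ± 0.133 CPM in WT.

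The Kcnn pores are small-conductance channels opened by calcium that carry part of the afterhyperpolarization. Kcnn3 had 28.5, 38.4, 43.9 and 36.1 CPM in cKO, against 29.99, 26.9 and 28.3 CPM in WT. cKO replicates 2 to 4 lay above all WT libraries and cKO replicate 1 among them. Its log2 fold change was 0.37 ± 0.13 (SE, 95% interval 0.09 to 0.65), with an edgeR unadjusted p of 0.0147 and an adjusted p of 0.691, and without single libraries it ran from 0.27 to 0.47. Kcnn1 had 15.8, 13.5, 13.9 and 15.9 CPM in cKO, against 18.2, 16.4 and 17.04 CPM in WT. Every cKO library lay below every WT library, and the log2 fold change was -0.22 ± 0.11 (SE, edgeR adjusted p = 0.715). Kcnn2 had 39.4 ± 6.40 CPM in cKO (SD, n = 4) and 35.5 ± 6.27 CPM in WT (SD, n = 3) (0.15 ± 0.14, SE), with 0.29 without WT replicate 2 and 0.04 without cKO replicate 1, 0.07 without WT replicate 3 and 0.09 without WT replicate 1.

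Of 12 inward rectifier genes 9 were tested, 5 with a positive and 4 with a negative log2 fold change. Of these 9, 3 were higher in every cKO library than in any WT library, where 3.97% of all tested genes were. They were the only such genes among all 74 tested members, and 3 of 74 is close to the 3.97% of all tested genes. That these 3 fall in the same subfamily was seen in these data and was not tested. Kcnj2, a strong inward rectifier that holds the resting potential, had 23.5, 31.6, 31.7 and 29.1 CPM in cKO, against 21.8, 23.2 and 21.9 CPM in WT. cKO replicate 1 was close to WT replicate 2 and the other cKO libraries were well above. The log2 fold change was 0.38 ± 0.12 (SE, 95% interval 0.12 to 0.63), with an edgeR unadjusted p of 0.00716 and an adjusted p of 0.679, and without single libraries it ran from 0.32 to 0.46. Kcnj16, a glial subunit that pairs with Kcnj10, had 35.1, 30.5, 30.8 and 27.1 CPM in cKO, against 25.9, 26.1 and 26.9 CPM in WT. Here cKO replicate 4 was close to the WT libraries and cKO replicate 1 the highest. Its log2 fold change was 0.23 ± 0.10 (SE, 95% interval 0.01 to 0.45), with an edgeR unadjusted p of 0.0417 and an adjusted p of 0.696, and 0.15 without cKO replicate 1. Kcnj14, a further strong inward rectifier, was low, with 2.35, 2.13, 1.56 and 1.69 CPM in cKO, against 1.10, 0.741 and 1.52 CPM in WT. cKO replicate 3 and WT replicate 3 nearly met. The log2 fold change was 0.79 ± 0.32 (SE, edgeR adjusted p = 0.694). Without single libraries it ran from 0.55 to 1.06, and on the log2(FPKM + 1) scale it was 0.27. For Kcnj2, Kcnj14, Kcnj16, Kcng2 and Kcnn1 p was 0.0571 by exact permutation (two-sided, log2 CPM), the smallest value that 4 against 3 libraries allow. This value follows from their groups not overlapping and adds nothing to it.

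Kcnj10, the partner of Kcnj16 that the rule leaves out, had 326, 261, 243 and 257 CPM in cKO, against 220.4, 238 and 216 CPM in WT, with every cKO library above every WT library. Of 9 astrocyte markers, Kcnj10 among them, 7 had a positive log2 fold change, and in sum they had 5831 to 6678 CPM in cKO and 5766 to 6443 CPM in WT. Most of that sum was Slc1a2, with 3674 to 4345 CPM in cKO and 3822 to 4257 CPM in WT. Kcnj10, Aqp4 and S100b, 3 of the 9, were higher in every cKO library than in any WT library. The same held for 3.97% of all tested genes, and 0 of the 9 were lower in this way. The part of the astrocyte markers in the Kcnj16 values was not tested.

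Kcnj16 (mm10 chromosome 11, 110968033 to 111027968) and Kcnj2 (chromosome 11, 111066164 to 111076821) are neighbours on the forward strand, with 38195 bases and 0 annotated genes between them. Because both were higher in every cKO library, the 250 bases before the start of each are shown, from RefSeq's table for GRCm38.p6, forward strand, 5′ to 3′. Capitals mark a GC box (GGGCGG) or a CCAAT box (CCAAT), on either strand.
Kcnj16, chr11:110967783-110968032: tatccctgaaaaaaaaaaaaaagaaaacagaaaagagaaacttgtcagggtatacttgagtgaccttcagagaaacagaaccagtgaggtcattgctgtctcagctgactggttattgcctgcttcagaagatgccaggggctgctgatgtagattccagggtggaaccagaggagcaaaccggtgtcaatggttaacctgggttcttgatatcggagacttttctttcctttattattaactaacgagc
Kcnj2, chr11:111065914-111066163: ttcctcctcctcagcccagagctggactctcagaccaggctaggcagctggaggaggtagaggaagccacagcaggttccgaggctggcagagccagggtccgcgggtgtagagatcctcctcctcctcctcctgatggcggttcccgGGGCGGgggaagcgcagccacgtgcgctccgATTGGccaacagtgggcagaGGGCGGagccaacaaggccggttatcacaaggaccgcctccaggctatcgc
The window of Kcnj2 held 2 GC boxes, 1 CCAAT box on the reverse strand and 14 CG dinucleotides, and that of Kcnj16 held 0 GC boxes, 0 CCAAT boxes and 3 CG dinucleotides. Neither held TATAAA or the core of a heat shock element (GAANNTTC). The table has 4 windows for Kcnj16, of which the first is shown. It lists 66 of the 91 members, with 91 windows. A GC box occurred in 45.1% of these and in 32.7% of all 32851 windows, a CCAAT box in 27.5% and 33.9%, TATAAA in 2.20% and 12.4%, and GAANNTTC in 6.59% and 6.69%, members first in each pair. These shares were not tested.

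The channels of Kcnj3, Kcnj6 and Kcnj9 are opened by G proteins and carry slow inhibition. Kcnj9 had 132, 115, 94.9 and 128 CPM in cKO, against 137, 123 and 135 CPM in WT, a log2 fold change of -0.17 ± 0.11 (SE, edgeR adjusted p = 0.756), and -0.08 without cKO replicate 3, its lowest library. Kcnj3 had 131, 122, 167 and 124 CPM in cKO, against 117, 116 and 124 CPM in WT (0.19 ± 0.11, SE), with cKO replicate 3 as the highest library. Kcnj6 had 39.9 ± 1.91 CPM in cKO (SD, n = 4) and 41.3 ± 4.30 CPM in WT (SD, n = 3). Both groups overlapped in each of these 3 genes. Kcnj11, the pore of ATP-sensitive channels, had 39.7 ± 3.91 CPM in cKO and 40.7 ± 5.86 CPM in WT. Kcnj4 had 102, 108, 144 and 101 CPM in cKO, against 134, 89.7 and 112 CPM in WT, with the highest values in cKO replicate 3 and WT replicate 1. Its log2 fold change of 0.02 was -0.12 without cKO replicate 3, -0.13 without WT replicate 2 and -0.0034 with upper quartile scaling.

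Of 14 two-pore-domain genes 9 were tested, 3 with a positive and 6 with a negative log2 fold change. Kcnk13, in brain a channel of microglia, had the smallest p of all members. It had 12.5, 12.04, 8.996 and 10.96 CPM in cKO, against 7.04, 6.36 and 9.18 CPM in WT. cKO replicate 3 lay just below WT replicate 3, and the other cKO libraries lay above all WT libraries. The log2 fold change was 0.57 ± 0.17 (SE, 95% interval 0.20 to 0.93), with an edgeR unadjusted p of 0.00578 and an adjusted p of 0.679, and without single libraries it ran from 0.45 to 0.73. The exact two-sided permutation p was 0.114. Of 8 microglia markers 7 had a negative log2 fold change, and in sum they had 311 to 353 CPM in cKO and 331 to 407 CPM in WT; their part in the Kcnk13 values was not tested. Kcnk1, the most abundant leak channel gene, had 99.4, 94.05, 85.2 and 94.5 CPM in cKO, against 86.96, 81.9 and 85.7 CPM in WT, a log2 fold change of 0.14 with an interval of -0.03 to 0.30. Only cKO replicate 3 lay within the WT range. Kcnk2, a channel opened by stretch, had 66.04 ± 18.3 CPM in cKO (SD, n = 4) and 58.8 ± 8.42 CPM in WT (SD, n = 3), and the acid-sensitive Kcnk3 and Kcnk9 had log2 fold changes of -0.02 and -0.003.

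**Figure D4:**
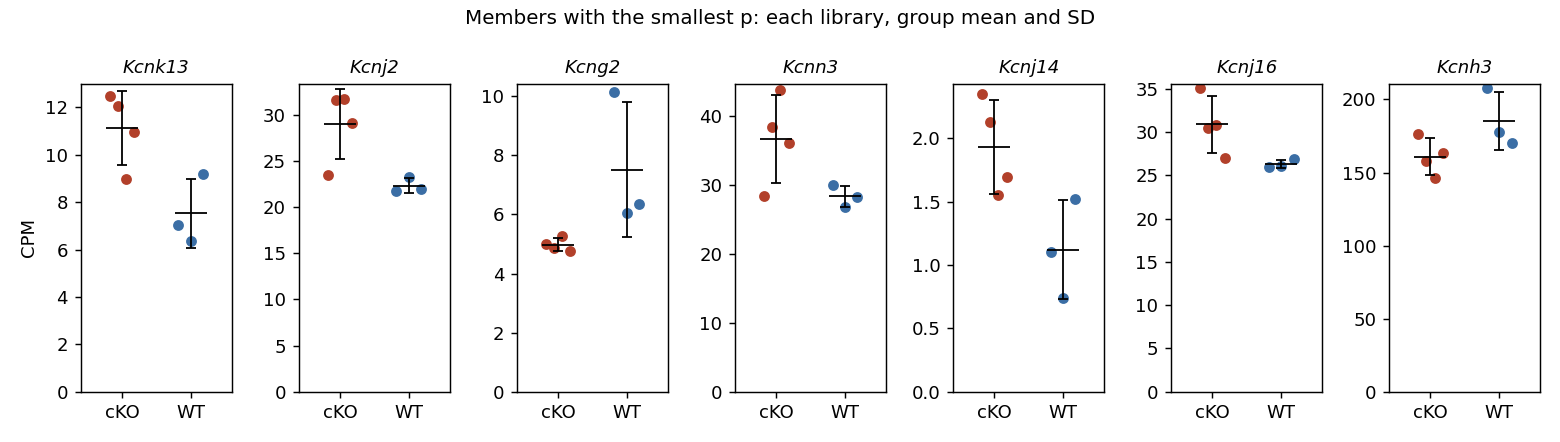
CPM in each library of the 7 potassium channel genes with an unadjusted p under 0.05, cKO left of WT, with the group mean and SD in black and each axis starting at 0. The groups stand apart for Kcnj2, Kcng2, Kcnj14 and Kcnj16 and overlap for Kcnk13, Kcnn3 and Kcnh3.

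The 17 untested members were low, with a mean of at most 0.268 FPKM, and Kcna7 had 0 counts in every library. Kcnk15 had 1, 3, 46 and 0 counts in cKO, against 3, 1 and 2 counts in WT. Without the filter on low counts edgeR called it, the 1 member called in any setting. Its 46 counts were in cKO replicate 3, the library high in olfactory bulb markers, where Cdhr1 had 103 CPM and Eomes 14.6 CPM. Eomes was at 0 in cKO replicate 2 and WT replicates 1 and 3. Kcne2, an auxiliary subunit known from choroid plexus, had 0, 1, 1 and 13 counts in cKO, against 0, 5 and 4 counts in WT. In cKO replicate 4, its highest library, 8 choroid plexus markers summed to 177 CPM, against 15.97 to 24.02 CPM in the other 6 libraries. The part of these markers in the counts of Kcnk15 and Kcne2 was not tested.

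The libraries did not deviate evenly. cKO replicate 3 was the highest library for 23 and the lowest for 17 of the 74 tested members, or at an extreme for 54.1%, against 48.9% of all tested genes. Among the genes named above it was highest for Kcnb2, Kcnd2, Kcne4, Kcnf1, Kcng1, Kcnj2, Kcnj3, Kcnj4, Kcnk2, Kcnma1 and Kcnn3 and lowest for Kcnab2, Kcnh3, Kcnip2, Kcnj9, Kcnj11, Kcnk3, Kcnk9, Kcns1 and Kcnt1. WT replicate 1 was at an extreme for 29 members (39.2%, against 37.7% of all tested genes), and cKO replicate 4 for 9 (12.2%, against 21.6%). Kcnab3, a beta subunit named here after its values were seen, had 82.3, 60.3, 53.7 and 63.2 CPM in cKO, against 41, 60.8 and 59.2 CPM in WT, with cKO replicate 1 far above and WT replicate 1 far below the rest.

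**Figure D5:**
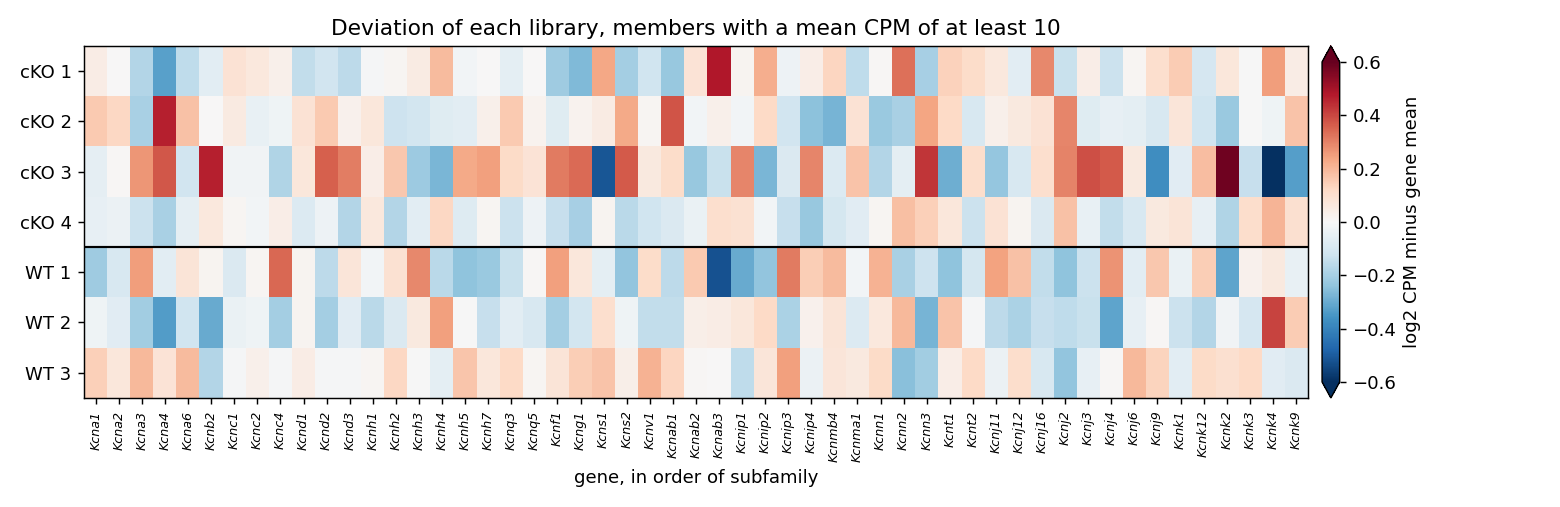
Log2 CPM minus the mean of the gene over 7 libraries, for 53 members with a mean of at least 10 CPM, with libraries as rows (cKO above the line, WT below it) and genes in order of subfamily; colours saturate at 0.6 either way. cKO replicate 3 is the highest or lowest library for 31 of these 53 genes. Over all 56 members at that level its share was 60.7%, against 53.8% of all tested genes at that level.

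Several members are neighbours in the genome. Kcna3, Kcna2 and Kcna10 follow each other on chromosome 3, with 63075 and 68050 bases between them, and Kcna5, Kcna1 and Kcna6 on chromosome 6, with 104984 and 61944 bases between them. Levels differed widely within a cluster: Kcna2 averaged 42.2 FPKM over the 7 libraries, Kcna3 7.79 FPKM and Kcna10 0.0333 FPKM. The log2 fold changes were -0.14 for Kcna3, 0.24 for Kcna5, 0.05 for Kcna1 and -0.09 for Kcna6. The span of 41 of the 91 members overlaps another annotated gene, and for 22 of them that gene exceeded 1 CPM in some library. Kcnq1, a low member with 0.526 ± 0.341 CPM in cKO (SD, n = 4) and 0.691 ± 0.275 CPM in WT (SD, n = 3), lies opposite Kcnq1ot1, at 28.6 CPM in cKO and 26.4 CPM in WT.

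Of 43 genes for proteins that bind, anchor or gate these channels, 42 were tested and edgeR called 0. Their log2 fold changes were positive for 22 and negative for 20, with a median of 0.02. At an edgeR unadjusted p under 0.05 stood 3 (7.14%), where 7.14% of all tested genes did. The groups did not overlap for 3, where 7.38% of all tested genes did not overlap. Of these, Lgi2 was higher in cKO, and Vapb and Calm3 were lower. Lgi2, a secreted protein of the LGI family found in Kcna complexes, had 104, 114, 143 and 100.2 CPM in cKO, against 94.3, 90.8 and 92.3 CPM in WT (0.32 ± 0.11, SE, edgeR adjusted p = 0.691). Its cKO libraries all lay above WT, with cKO replicate 3 the highest. Drd2, a dopamine receptor that opens G-protein-gated Kcnj channels, had 39.1, 74.96, 58.8 and 40.4 CPM in cKO, against 23.9, 38.5 and 41.2 CPM in WT (0.63 ± 0.23, SE, edgeR adjusted p = 0.694), and the groups overlapped. Drd2 is also a marker of striatal medium spiny neurons, whose 11 markers summed to 1324 to 2338 CPM in cKO and 1322 to 1644 CPM in WT, and their part was not tested. Lingo1, a membrane protein that binds BK channels, had 356 ± 31.5 CPM in cKO (SD, n = 4) and 424 ± 51.4 CPM in WT (SD, n = 3) (-0.25 ± 0.10, SE, edgeR adjusted p = 0.694), and Gabbr2, a GABA-B receptor subunit, had 414 ± 33.02 CPM in cKO and 470.1 ± 44.7 CPM in WT (-0.18 ± 0.09, SE, edgeR adjusted p = 0.705). For Lingo1 and Gabbr2 too the groups overlapped. Dpp6 and Dpp10, subunits of Kcnd channels, had log2 fold changes of 0.06 and 0.02.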

How the data were processed

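Motor cortex RNA-seq of 7 libraries (4 cKO, 3 WT) was analysed from the authors' deposited raw gene counts, with the authors' deposited FPKM values for levels between genes. The submitters' processing notes name mm10, DESeq2 1.20.0 and featureCounts 1.5.0-p3. For the aligner, annotation release and strand setting, nothing is given in the sources used.

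Counts were fitted with edgeR 4.0.16 in R 4.3.3 (filterByExpr, TMM scaling, quasi-likelihood F test on genotype) over all 16308 genes that passed, with Benjamini-Hochberg adjustment over all of them and a threshold of 0.05. CPM are scaled by TMM. Exact permutation tests (SciPy 1.17.1) used log2 CPM with a prior count of 2. Alternatives were the replicate block, other scalings and filters, DESeq2 1.42.0, limma 3.58.1 (voom, and log2 of FPKM plus 1 or 0.1) and leaving out libraries.

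Members and gene lists were chosen with earlier results of these data known. Named by rule were the 6 members with the smallest p in each direction, the member with the highest mean FPKM in each subfamily and the 6 highest in all, and the 2 partner genes of smallest p for each sign. This left 29 members, since some items are not reported here. Other genes are given as examples and were chosen with their values known. The deviations of libraries numbered 1, 2 and 3 correlated between cKO and WT at 0.110, 0.128 and 0.122, each above 0.1, so the numbers were taken to pair libraries, although cKO replicate 4 with WT replicate 2 gave 0.210 and cKO replicate 3 with WT replicate 1 gave 0.129, and the labels leave the meaning of the numbers unsaid. Separate mice are not stated for the libraries, and a p-value then measures only their spread, which may be technical. All sample columns were mapped (0 left over).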

Additional observations from a re-analysis of the deposited data

Results flagged for a closer look

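In 2 of the 29 genes named by rule, 1 of the 4 cKO libraries lay further from the others than Dixon's 95% critical value allows for the gap divided by the range. Chance gives this in about 1 in 20 groups. Kcnj4 had 144 CPM in cKO replicate 3, with 101 to 108 CPM in the other cKO libraries, and a ratio of 0.831. Kcne1l had 2.66 CPM in cKO replicate 2, with 2.17 to 2.23 CPM in the others, and a ratio of 0.874. Kcnk15, Kcne2 and Kcnj15 were examined because 1 library stood out in their counts, so that the excess in Kcnk15 and Kcne2 is a description. Kcnk15 had 3.11 CPM in cKO replicate 3, the library high in olfactory bulb markers, and a ratio of 0.936. Kcne2 had 0.815 CPM in cKO replicate 4, the library high in choroid plexus markers, chiefly Ttr, and a ratio of 0.917.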

How the results depend on the processing

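The count of called potassium channel genes stayed at 0 in every setting except without a filter on low counts, where it was 1 (Kcnk15). Members at an unadjusted p under 0.05 were 7, against 3 on log2(FPKM + 1) (4.23%, all genes 6.98%), 13 without a filter (14.4%, all genes 6.68%), 11 with the replicate block (14.9%, all genes 7.52%) and 4 to 8 without single libraries (all genes 3.34% to 9.91%). Over all genes 0 were called, against 198 without a filter, 3 with DESeq2, 3 on log2(FPKM + 1) without a filter, 2 with the replicate block, 1 in the 5 libraries left without cKO replicate 3 and WT replicate 1 (a setting added after the data were seen), and 0 to 3 without single libraries. The cause was not tested. Kcnj2 and Kcnk13 kept an unadjusted p under 0.05 in all of these settings, and the smallest adjusted p of a gene named by rule was 0.115 (Kcnk13).

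Of the 29 genes 20 kept their sign in every setting and 9 did not, all with log2 fold changes near 0. The replicate block gave -0.00073 for Kcnt1 and 0.12 for Kcnu1. The 5 libraries gave 0.17 for Kcne1l and -0.031 for Kcnma1, and upper quartile scaling -0.0034 for Kcnj4. Without single libraries the values ran as follows: Kcne1l -0.257 to 0.157, Kcnf1 -0.199 to 0.0374, Kcng1 -0.189 to 0.0237, Kcnip2 -0.077 to 0.11, Kcnj4 -0.128 to 0.166, Kcnma1 -0.0359 to 0.0697, Kcns1 -0.209 to 0.0223, Kcnt1 -0.092 to 0.103 and Kcnu1 -0.133 to 0.112. Members under 10 CPM had wide intervals, which for many of them did not exclude a 1.5-fold difference.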
